A study of Danio rerio with 6 samples.

Results

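The genes described here encode the contractile machinery of skeletal muscle: myosin heavy and light chains, actins, troponins, tropomyosins, Z-disc and M-band proteins, titin and nebulin, and the calcium-handling proteins of the muscle fibre. They were taken by a pattern on the gene symbol that used no measured value, and 95 of the 30713 named genes in the table matched it. The pattern left out 9 matching genes of heart, smooth muscle or non-muscle cells. By symbol, 35 of the 95 genes were placed in a fast fibre class, 17 in a slow fibre class and 19 in a class shared by both fibre types or of no certain type. A further 13 carry names of genes used mainly in heart, and 11 belong to non-muscle, smooth muscle or other cells, so the pattern reached somewhat beyond skeletal muscle. Among the 13, the muscle type of tnnt2b to tnnt2e is uncertain.

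RNA-Seq was performed on whole zebrafish larvae of the AB strain, WT in genotype, at 7 dpf. Control larvae were kept in 0% EtOH and embryonic alcohol exposure (EAE) larvae in 1% EtOH, both from 12 hpf to 5 dpf, after which both groups were held without EtOH and fed paramecia until 7 dpf. Each group had 3 pools of 30 homogenized larvae, siblings of mixed sizes. The study's methods also speak of combined clutches, so how far pools of a group came from separate clutches is not settled, and p-values measure the spread between pools.

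In a sarcomere, myosin heads on the thick filament pull on actin in the thin filament when calcium binds troponin. Titin spans the sarcomere from Z-disc to M-band, nebulin lies along the thin filament, and calcium is released from the sarcoplasmic reticulum by ryanodine receptors and pumped back by SERCA. The larval zebrafish trunk is mostly fast fibres with a thin surface layer of slow fibres, and each fibre type uses its own isoforms of many of these proteins.

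Counts on named genes totalled 17264955 to 23638705 per pool, and the 95 genes held 8.03% to 8.82% of them. Of 13 skeletal muscle markers outside the pattern, none was at 0 in all pools, and their summed level was 14134 to 15305 CPM (counts scaled to a common library size) in controls and 13213 to 14571 CPM in EAE pools. Creatine kinase genes ckma and ckmb, which mark differentiated muscle, averaged 4800 and 3790 CPM in controls. Because whole larvae were homogenized, fewer muscle fibres and less of a transcript per fibre cannot be told apart.

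Most sarcomere genes had nearly the same level in both groups. Of the 94 genes with enough counts to test, 4 rose in EAE larvae (mylpfb, pvalb3, ldb3b and myl12.1) and 2 fell (tcap and pvalb6) at an adjusted p under 0.05 by the quasi-likelihood test of edgeR, with p-values adjusted by Benjamini-Hochberg over 21617 genes. Over all genes tested, 7.22% rose and 6.95% fell, so both shares among the sarcomere genes lay below the background. At an unadjusted p under 0.05 by the same test, 13 of the 94 were higher and 5 lower, beside 3129 and 3098 of all 21617 genes. The higher share was close to that of all genes, and the lower share was below it. Those all-gene numbers are also the background for the counts of other lists at this threshold. The 3 EAE pools lay above the 3 control pools for 12 genes and below them for 4, beside 16.0% of all genes in the first direction and 16.0% in the second. The median log2 fold change of the 94 genes was 0.01, with quartiles of -0.04 and 0.11, and that of all genes tested was 0.00077, with quartiles of -0.14 and 0.13.

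The precision was high enough to bound most of these differences. The 95% interval of the difference lay within a 1.5-fold change in either direction for 90 of the 94 genes, against 77.1% of all genes tested. The exceptions were tcap and pvalb3, which were called, and the low troponin I genes tnni2a.3 and tnni4b.1, whose intervals were wide. Standard errors of the log2 fold change had a median of 0.067 among the sarcomere genes and 0.096 among all genes. The slow troponin I gene tnni1a was too low to test, with 4, 3 and 5 counts in control replicates 1 to 3 and 11, 1 and 8 counts in EAE replicates 1 to 3.

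**Figure D1:**
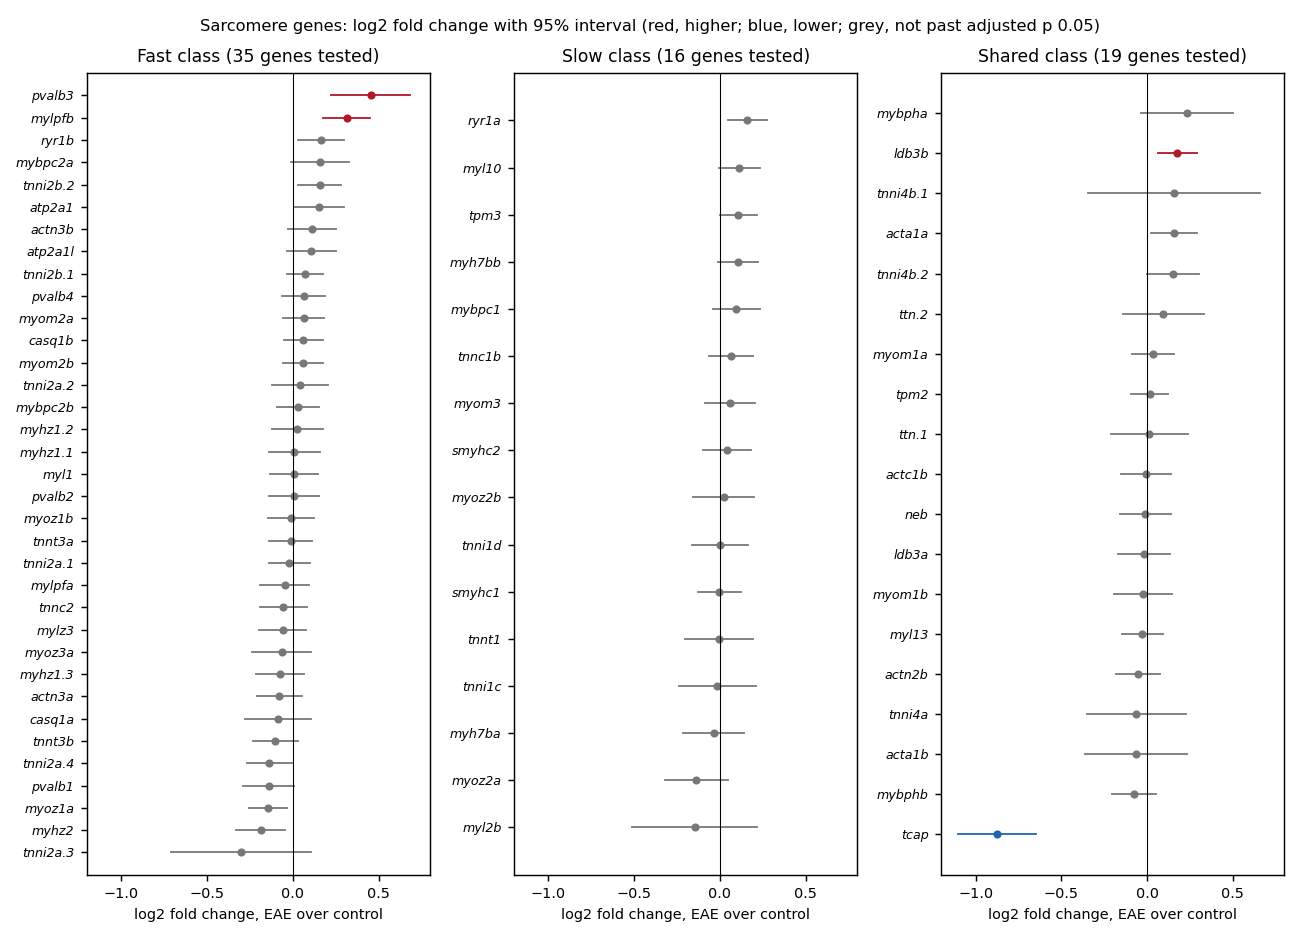
Log2 fold change of EAE over control (horizontal axis) for each tested gene of the fast, slow and shared classes, with its 95% interval as a line. Red points rose, blue points fell and grey points did not pass an adjusted p of 0.05; 3 of the 70 genes are red, 1 is blue and most intervals cross 0.

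Fast fibres make up most of the muscle mass. The genes of the fast class with the most counts were myhz1.1, a fast myosin heavy chain, pvalb2, a parvalbumin that buffers calcium in fast fibres, and mylpfa, the fast regulatory light chain. For myhz1.1 the controls had 9047, 8239 and 9475 CPM and the EAE pools 9404, 8600 and 8935 CPM. The groups overlapped throughout, with a log2 fold change of 0.01 and a 95% interval of -0.14 to 0.16. For pvalb2 the log2 fold change was 0.01 (interval -0.14 to 0.15), and for mylpfa it was -0.05 (interval -0.19 to 0.09). Of the 35 fast genes, 2 rose and 0 fell by edgeR, 5 and 3 had an unadjusted p under 0.05 in the 2 directions, and the median log2 fold change was 0.01. DESeq2, limma-voom and edgeR without a filter on low counts each called 1 fast gene lower, myhz2.

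The abundant fast gene that rose was mylpfb, the paralog of mylpfa. It had 307, 309 and 365 CPM in control replicates 1 to 3 and 409, 385 and 427 CPM in EAE replicates 1 to 3. The lowest EAE pool stood above the highest control pool, replicate 3. The mean was 327 ± 33.1 CPM (SD, n = 3) in controls and 407 ± 21.0 CPM in EAE larvae, which is 24.4% higher, with a log2 fold change of 0.31 ± 0.065 (SE) and an adjusted p of 0.0038 by edgeR. The share of mylpf counts on mylpfb was 4.52%, 4.57% and 4.88% in controls and 5.68%, 5.89% and 6.20% in EAE pools. A 2-sided exact permutation test of this share, which was chosen after the values were seen, gave p = 0.1, the smallest that 3 pools against 3 allow. Summed over both paralogs, mylpf had a log2 fold change of -0.03 (interval -0.17 to 0.11).

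The second fast gene called was pvalb3, a parvalbumin at a low level. It was placed in the fast class by symbol, and its fibre type is uncertain. Controls had 8.67, 8.34 and 11.2 CPM and EAE pools 11.9, 13.3 and 13.8 CPM. All EAE pools were above all controls, and control replicate 3 came close to EAE replicate 1. The log2 fold change was 0.45 ± 0.109 (SE), with an adjusted p of 0.00997 by edgeR, and leaving out control replicate 1 or control replicate 2 ended the call. In the RefSeq gene order of the GRCz12tu assembly, pvalb3 lies between pvalb9 and pvalb2, of which pvalb2 was level between groups and pvalb9 had a log2 fold change of 0.12 without passing the test. Summed over pvalb1 to pvalb4, the log2 fold change was -0.04 (interval -0.19 to 0.11). In controls this sum averaged 10493 CPM and pvalb3 only 9.41 CPM, so the sum cannot show a change in pvalb3.

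In the opposite direction, the fast myosin heavy chain gene myhz2 had 4019, 4090 and 4497 CPM in controls and 3781, 3437 and 3857 CPM in EAE pools. All EAE pools were below all controls, and the mean was 12.1% lower, but the gene did not pass the test by edgeR (log2 fold change -0.19 ± 0.067 SE, adjusted p = 0.071). Over the alternatives its adjusted p ranged from 0.018 to 0.32. Among the counts of the 4 myhz genes, myhz2 took 22.04%, 24.05% and 22.97% in controls and 20.48%, 20.28% and 21.64% in EAE pools (exact permutation p = 0.1, the smallest possible, share chosen after the values were seen). The share of myhz1.1 was higher instead, at 48.8% ± 0.683 in controls and 50.6% ± 0.411 in EAE larvae (SD, n = 3). The myhz genes summed had a log2 fold change of -0.04 (interval -0.19 to 0.11). Since myhz1.1, myhz1.2 and myhz1.3 are direct neighbours with closely similar sequences, and how reads matching several genes were counted is not given in the sources used here, levels of single myhz genes are uncertain.

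No other fast gene passed the test by edgeR, and most differed little in level. Among the larger differences, the fast troponin I genes tnni2b.2 and tnni2a.4 had log2 fold changes of 0.16 and -0.14 (adjusted p = 0.087 and 0.16 by edgeR). Those of mybpc2a and pvalb1 were 0.16 and -0.14. Without control replicate 3 or without EAE replicate 2, tnni2b.2 was called higher. The fast troponin C gene tnnc2 had a log2 fold change of -0.05, the fast troponin T gene tnnt3b -0.10, the essential light chain genes mylz3 and myl1 -0.06 and 0.01, and the fast alpha-actinin genes actn3a and actn3b -0.08 and 0.11. The Z-disc gene myoz1a, a calsarcin that ties calcineurin to alpha-actinin, had 104, 103 and 111 CPM in controls and 99.8, 90.9 and 96.2 CPM in EAE pools. Its groups did not overlap, but it did not pass the test (log2 fold change -0.15, adjusted p = 0.074 by edgeR).

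**Figure D2:**
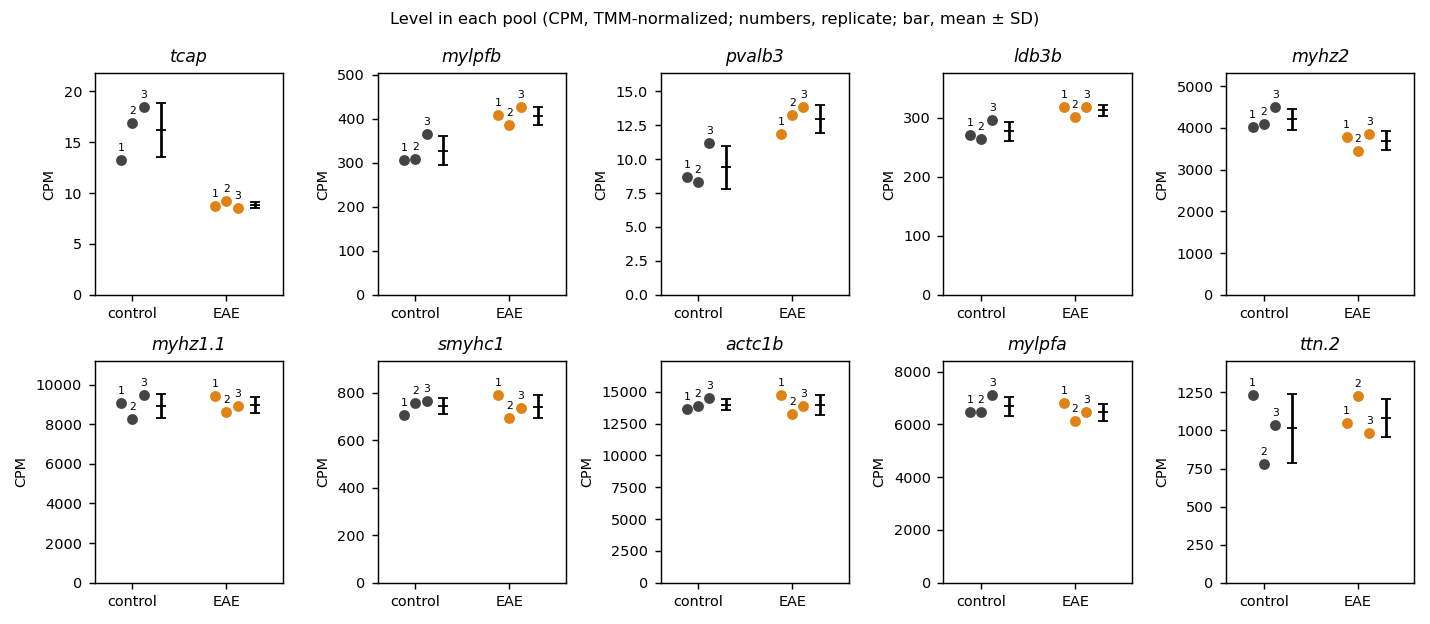
CPM in each pool (vertical axis, starting at 0; points numbered by replicate) with the mean ± SD of 3 pools beside them, for 10 sarcomere genes. In tcap the EAE pools lie at 8.56 to 9.20 CPM, below controls at 13.3 to 18.5 CPM, whereas in myhz1.1, smyhc1, actc1b, mylpfa and ttn.2 the groups overlap.

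In the slow class no gene passed the test among 16 tested, and 2 were higher and 0 lower at an unadjusted p under 0.05. The 95% interval lay within a 1.5-fold change for all 16. The slow myosin heavy chain smyhc1, the gene of this class with the most counts, had 705, 759 and 766 CPM in controls and 791, 694 and 738 CPM in EAE pools. EAE replicate 1 was the highest pool and EAE replicate 2 the lowest, and the log2 fold change was -0.0041 (interval -0.13 to 0.12). The slow tropomyosin tpm3 had 370, 391 and 400 CPM in controls and 422, 414 and 416 CPM in EAE pools, all above the controls (log2 fold change 0.11, adjusted p = 0.17 by edgeR). The slow regulatory light chain myl10 had a log2 fold change of 0.11 with overlapping groups. The median of the class was 0.03. DESeq2 and limma-voom also called 0 slow genes.

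Fast genes summed took 5.81% to 6.46% of all counts in controls and 5.89% to 6.24% in EAE pools, and slow genes 0.168% to 0.178% and 0.175% to 0.185%. The ratio of fast to slow counts does not depend on normalization between pools. It was 35.8, 33.2 and 36.2 in controls and 33.8, 33.7 and 33.3 in EAE pools. EAE pools fell inside the range of the controls, which spread more (35.1 ± 1.63 against 33.6 ± 0.265, SD, n = 3). Without smyhc1, the ratio was 61.3 ± 2.35 in controls and 57.1 ± 1.251 in EAE larvae, with every EAE pool below every control. Control replicate 2 (58.64) and EAE replicate 1 (58.58) were almost equal in this ratio. Without myhz1.1, it was 29.9 and 28.6, and the groups overlapped. No test was made on these sums, since genes of a class are not replicates.

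**Figure D3:**
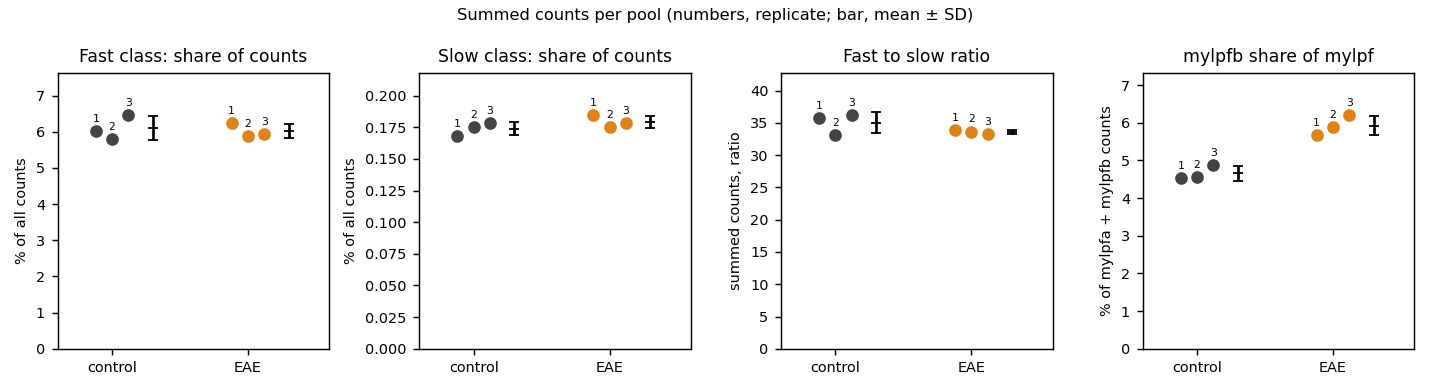
Shares of all counts taken by the fast and slow classes (first 2 panels, %), the ratio of fast to slow counts, and the share of mylpf counts on mylpfb (%), each per pool (points numbered by replicate) with the mean ± SD of 3 pools. The groups overlap in the first 3 panels, and in the last the controls lie at 4.52% to 4.88% and the EAE pools at 5.68% to 6.20%.

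Ryanodine receptor and calcium pump genes were higher on average in EAE larvae without passing the test. For ryr1a, the slow fibre calcium release channel, controls had 65.2, 59.5 and 64.3 CPM and EAE pools 67.3, 73.4 and 70.9 CPM. The groups did not overlap, and the log2 fold change was 0.16 ± 0.055 (SE, adjusted p = 0.058 by edgeR, 0.049 to 0.22 over the alternatives), with the call made only without EAE replicate 1. For ryr1b, its fast fibre counterpart, controls had 255, 210 and 249 CPM and EAE pools 270, 274 and 254 CPM. These groups touched, as control replicate 1 exceeded EAE replicate 3, and the log2 fold change was 0.16 (adjusted p = 0.099 by edgeR). The SERCA pump genes atp2a1 and atp2a1l had log2 fold changes of 0.16 and 0.11 (adjusted p = 0.14 and 0.32 by edgeR). Over the alternatives, the log2 fold change ran from 0.08 to 0.22 for ryr1b and from 0.10 to 0.21 for atp2a1. Both were lowest without control replicate 2. With paralogs summed, every EAE pool lay above every control for both ryr1 (log2 fold change 0.16, adjusted p = 0.082) and atp2a1 (0.13, adjusted p = 0.23). The calcium store proteins casq1a and casq1b, the calsequestrins, had log2 fold changes of -0.09 and 0.06.

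Genes shared by fast and slow fibres gave the largest difference of the whole set. The Z-disc protein gene tcap (telethonin, which caps titin at its amino end) had 13.3, 16.9 and 18.5 CPM in control replicates 1 to 3 and 8.72, 9.20 and 8.56 CPM in EAE replicates 1 to 3. The EAE pools were close together, and each was below the lowest control. The mean fell from 16.2 ± 2.66 to 8.83 ± 0.337 CPM (SD, n = 3), a log2 fold change of -0.88 ± 0.109 (SE, adjusted p = 3.9e-05 by edgeR). The counts behind it were 263, 291 and 380 in controls and 203, 186 and 170 in EAE pools. The gene passed the test in all 12 alternatives, with log2 fold changes from -1.003 to -0.76. The titin genes ttn.1 and ttn.2, which encode its partner at the Z-disc, were not called in any of them.

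Another Z-disc gene, ldb3b (cypher/ZASP, which binds alpha-actinin), rose modestly. Controls had 270, 265 and 296 CPM and EAE pools 318, 302 and 319 CPM. The groups did not overlap, although control replicate 3 was close to EAE replicate 2. The log2 fold change was 0.18 ± 0.054 (SE, adjusted p = 0.036 by edgeR). The call was lost without control replicate 1, control replicate 2, EAE replicate 1 or EAE replicate 3. Its paralog ldb3a had a log2 fold change of -0.02.

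The skeletal actin gene with the most counts, actc1b, had 13650, 13848 and 14486 CPM in controls and 14743, 13222 and 13875 CPM in EAE pools. Both the highest and the lowest pool were EAE pools (log2 fold change -0.0049, interval -0.15 to 0.14). Another skeletal actin gene, acta1b, was the most variable gene of the shared class among controls, with a coefficient of variation of 27.5% in controls and 21.2% in EAE larvae, and its interval of -0.36 to 0.24 was correspondingly wide. The 4 actin genes acta1a, acta1b, actc1a and actc1b summed had a log2 fold change of -0.0032 (interval -0.15 to 0.14). Of the counts of acta1a, acta1b and actc1b, without actc1a, actc1b held 96.7% in controls and 96.6% in EAE larvae.

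The genes of the giant filament proteins had similar means in both groups, and the titin genes spread widely between pools. For ttn.2 controls had 1233, 779 and 1033 CPM and EAE pools 1047, 1224 and 981 CPM. Control replicate 1 was the highest pool and control replicate 2 the lowest, so the controls enclosed all EAE pools (log2 fold change 0.09, interval -0.14 to 0.33). For ttn.1, its neighbour in the genome, the log2 fold change was 0.01 (interval -0.21 to 0.24), and for nebulin (neb) it was -0.01 (interval -0.16 to 0.14). On the log2 scale, control replicate 2 differed from the mean of the other controls by -0.47 for ttn.1, -0.54 for ttn.2, -0.22 for neb, -0.26 for ryr1b and -0.12 for ryr1a, and by -0.17 for myhz1.1, -0.07 for mylpfa and -0.01 for pvalb2. Control replicate 1 differed the other way for the titin genes, by 0.48 for ttn.1 and 0.46 for ttn.2. EAE replicate 2 differed from the other EAE pools by 0.25 for ttn.1 and 0.27 for ttn.2.

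Fast genes had their high and low pools in common. Control replicate 3 was the highest control for 33 of the 35 fast genes, against 33.6% of all genes tested, and the highest of all 6 pools for 20 of them, against 15.6%. Among EAE pools, replicate 1 was the highest for 24 fast genes, against 30.8% of all genes, and replicate 2 the lowest for 26, against 32.8%. The other classes were more divided: control replicate 3 was the highest control for 10 of 17 slow genes, 12 of 19 shared genes and 5 of 13 genes named for heart, and EAE replicate 1 the highest EAE pool for 8 slow genes and 8 shared genes. These genes share their libraries, so their common movement is 1 difference per pool and not many. The median coefficient of variation over the fast genes was 7.04% in controls and 5.01% in EAE larvae, and over the slow genes 5.78% and 6.47%. Because control replicate 3 was high, leaving it out turned the median log2 fold change of the 94 genes from 0.01 to 0.07. It also raised the number with a higher EAE mean from 53 to 70. The number of sarcomere genes called higher went from 4 to 7 without control replicate 3. That number was 2 without control replicate 1 or control replicate 2, and 6 without EAE replicate 2. Over all genes, 1560 were called higher, against 1138 without control replicate 3 and 1345 without EAE replicate 2. Without control replicate 1 or control replicate 2, 953 and 1054 of all genes were called higher. The sarcomere genes called lower were tcap and pvalb6 each time.

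**Figure D4:**
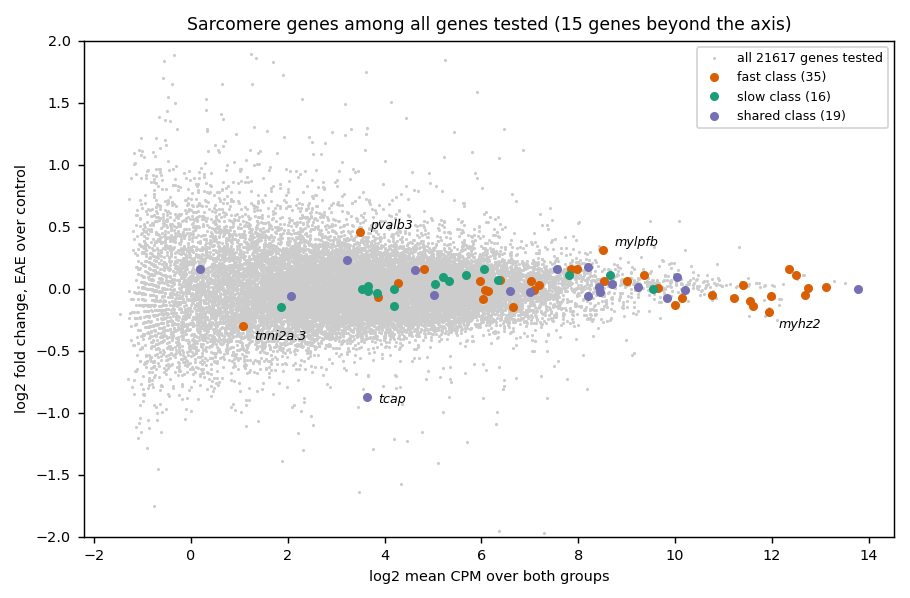
Log2 fold change of EAE over control (vertical axis) against log2 mean CPM over both groups (horizontal axis) for all 21617 genes tested (grey) and for 35 fast, 16 slow and 19 shared genes (coloured). The coloured genes run from -0.88 (tcap) to 0.45 (pvalb3), and those with the highest CPM lie near 0. Beyond the axis lie 15 genes.

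The genes that the symbol pattern took in from other tissues held the remaining calls. The non-muscle myosin regulatory light chain gene myl12.1 had 212, 220 and 219 CPM in controls and 262, 247 and 249 CPM in EAE pools. Its groups were well apart, and it rose by a log2 fold change of 0.22 ± 0.049 (SE, adjusted p = 0.0057 by edgeR). The parvalbumin gene pvalb6 had 29.8, 27.7 and 30.9 CPM in controls and 21.2, 24.1 and 22.9 CPM in EAE pools. All EAE pools were lower, with a log2 fold change of -0.38 ± 0.070 (SE, adjusted p = 0.0017 by edgeR). Both were called in all 12 alternatives. Of the 13 genes named for heart, 0 passed the test in either direction by edgeR, DESeq2 or limma-voom, 3 were higher and 0 lower at an unadjusted p under 0.05, and the cardiac actin gene actc1a had an adjusted p of 0.051. It was called higher by edgeR when normalized without the sarcomere genes, without a filter on low counts, without control replicate 3 and without EAE replicate 3, and the troponin T gene tnnt2d (adjusted p = 0.059) without a filter and without EAE replicate 2.

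Further lists covered genes outside the pattern that build, drive or support the sarcomere. Of 42 tested genes of sarcomere assembly and turnover, 10 rose and 1 fell by edgeR, beside 7.22% and 6.95% of all genes, with a median log2 fold change of 0.15, beside 0.00077 over all genes. The filamin C gene flnca, which crosslinks actin at the Z-disc, had 36.5, 36.8 and 37.2 CPM in controls and 46.6, 47.3 and 41.6 CPM in EAE pools. These groups did not overlap, and the log2 fold change was 0.30 ± 0.061 (SE, adjusted p = 0.0037 by edgeR). The actin-binding Xin repeat gene xirp2a rose by 0.23, the caveolar gene cavin4a by 0.25 and the muscle protease gene capn3a (calpain 3) by 0.20 on the log2 scale. The number called higher depended on the pools. It was 1 without control replicate 2, 4 without EAE replicate 1, 6 without control replicate 1, 8 or 9 without any other pool, and 4 with DESeq2. At an adjusted p under 0.01 by edgeR it was also 1. Over all genes, 1560 were called higher, against 1054 without control replicate 2, 924 without EAE replicate 1 and 953 without control replicate 1. DESeq2 called 948 of all genes higher, and an adjusted p under 0.01 by edgeR left 700.

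The gene of that list that fell was hsp90aa1.2, with 130, 126 and 121 CPM in controls and 90.1, 95.7 and 103 CPM in EAE pools. Its groups were clearly apart, with a log2 fold change of -0.39 (adjusted p = 0.00015 by edgeR). Its close paralog hsp90aa1.1, the Hsp90 that folds myosin in zebrafish muscle, rose by 0.27 (adjusted p = 0.030). The myosin chaperone gene unc45b and the myosin-binding methyltransferase gene smyd1b, named with it after their values were seen, had log2 fold changes of 0.20 (adjusted p = 0.11) and 0.25 (adjusted p = 0.064). The paralog of smyd1b, smyd1a, had a log2 fold change of -0.11 (adjusted p = 0.22 by edgeR). Reads shared between the hsp90aa1 paralogs could have been divided between them by the counting.

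Of 35 tested genes of excitation-contraction coupling and the neuromuscular junction, 3 rose, with a median of 0.10. That count is near the background of 7.22% of all genes called higher. These were the acetylcholine receptor subunit gene chrna1 (log2 fold change 0.28), the junctophilin gene jph1b (0.17) and the calcium pump gene atp2a2b (0.16). The count was 1 without control replicate 1, control replicate 2 or EAE replicate 1, 6 without EAE replicate 3, and 1 with DESeq2. None fell by edgeR or DESeq2. At an unadjusted p under 0.05 by edgeR, 13 of the 35 were higher and 1 lower, beside 3129 and 3098 of all 21617 genes. The 3 EAE pools lay above the 3 controls for 11 of the 35 and below them for 1, beside 16.0% of all genes in each direction. Without a filter on low counts, 7 were called higher and 1 lower, and without control replicate 2, 1 was called lower. Of 28 genes of the fibre membrane and cytoskeleton, 3 rose, also beside 7.22% of all genes, with a median of 0.07. They were the sarcoglycan gene sgca (0.26), the membrane repair gene dysf (dysferlin, 0.28) and the caveolin gene cav3 (0.23), and the count was 0 without control replicate 1, control replicate 2 or EAE replicate 1, 1 without EAE replicate 2, 0 with DESeq2 and 0 with a replicate block. None fell by edgeR or DESeq2, and at an unadjusted p under 0.05, 7 were higher and 2 lower. Without EAE replicate 3, 4 were called higher and 1 lower, and without a filter on low counts 1 was called lower.

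Of 37 genes of muscle energy supply, 1 rose, beside 7.22% of all genes, with a median of 0.01. None fell by edgeR or DESeq2, 4 were higher and 3 lower at an unadjusted p under 0.05, and 1 was called lower without control replicate 1. The gene that rose was gys1, the glycogen synthase of muscle (log2 fold change 0.20), and without control replicate 2 it was not called, while 2 genes were called without control replicate 3 or EAE replicate 3. Of 31 regulators of muscle fate and growth, 2 rose and 2 fell, no more than the background of 7.22% and 6.95% of all genes. The transcription factor gene mef2ca rose by 0.18 and the cofactor gene vgll2b by 0.32, whereas the myostatin gene mstnb, a brake on muscle growth, had a log2 fold change of -0.68 and pax7a, a marker of muscle precursors and of other neural crest and neural cells, -0.27. Controls had 3.58, 3.82 and 3.84 CPM of mstnb and EAE pools 2.41, 1.83 and 2.77 CPM. The groups were apart at a low level. Without EAE replicate 2, none of the 31 was called in either direction. Without control replicate 2, 0 were called higher and 1 lower, and without control replicate 1, 1 and 1. Without EAE replicate 1 or EAE replicate 3, 1 was called higher, and DESeq2 called 0 higher and 1 lower.

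Among the skeletal muscle markers outside the pattern, 3 of 13 rose, beside 7.22% of all genes, with a median log2 fold change of 0.06. The count was 2 with DESeq2, with a replicate block, and without control replicate 1 or 2 or EAE replicate 1 or 2. Without control replicate 2 the median was -0.0044. The myosin heavy chain gene myhb, whose symbol the pattern does not take, had 232, 162 and 210 CPM in controls and 266, 275 and 274 CPM in EAE pools. All EAE pools were above all controls, and control replicate 2 was the lowest by far (log2 fold change 0.43 ± 0.085 SE, adjusted p = 0.0030 by edgeR). The others were cav3 and chrna1, whose calls were already counted in the lists above. Several more of these markers, such as ckma and ckmb, also stand in those lists. The creatine kinases ckma and ckmb had log2 fold changes of -0.08 and -0.09.

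**Figure D5:**
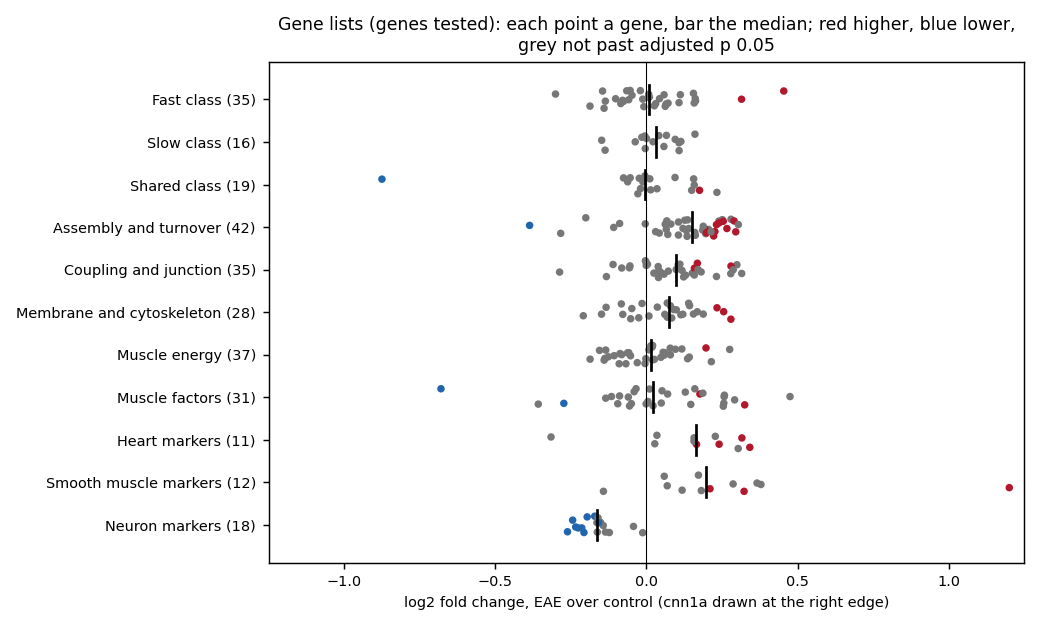
Log2 fold change of EAE over control (horizontal axis) of each tested gene in 11 gene lists (rows, number tested in brackets), with the median of the list as a black bar. Red genes rose, blue genes fell and grey genes did not pass an adjusted p of 0.05; medians are 0.01 for the fast class, 0.15 for assembly and turnover and -0.16 for neuron markers, and cnn1a is drawn at the right edge.

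Markers of other tissues differed between the groups in the same libraries. Over all genes tested, 7.22% rose and 6.95% fell, and the counts of markers called stand beside these shares. Heart markers summed to 251 to 273 CPM in controls and 284 to 310 CPM in EAE pools, and 4 of 11 rose (myl7, vmhc, vmhcl and tnnt2a), with 0 called without control replicate 2 or without EAE replicate 1 and 2 without control replicate 3. Smooth muscle markers summed to 369 to 391 CPM and 425 to 452 CPM, and 3 of 12 rose (acta2, myh11a and cnn1a). The call of cnn1a rested on few counts, with 1, 3 and 9 in control replicates 1 to 3 and 31, 22 and 25 in EAE replicates 1 to 3. Neuron markers summed to 4441 to 4590 CPM and 3713 to 4086 CPM, and 9 of 18 fell, with 3 called without control replicate 1 or EAE replicate 1 and 5 without control replicate 3. Liver markers rose in 6 of 9, with 2 called without control replicate 1 and 3 without control replicate 3. Skin markers rose in 5 and fell in 2 of 11, with 3 rising without control replicate 1 or EAE replicate 1 and 1 falling without any 1 pool other than EAE replicate 1, and 0 of 8 cartilage and 0 of 5 notochord markers passed by edgeR, with 1 of each at an unadjusted p under 0.05. No marker of these lists was at 0 in all pools. Heart and smooth muscle markers had median log2 fold changes of 0.17 and 0.20, beside 0.15 for the assembly and turnover list, several of whose genes, such as flnca, are also used in heart or smooth muscle, as is atp2a2b. The part of these tissue differences in the values of that list, of the other lists, and of myl12.1 and pvalb6 was not tested.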

How the data were processed

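RNA-Seq of 6 pools was analysed. The authors sequenced poly-A selected RNA as single-end reads, aligned it to GRCz10 with STAR per the submitters' processing notes, and deposited raw counts per gene symbol for each pool. How reads were assigned to genes, with which annotation, on which strand and with what rule for multiple alignments, is not given in the sources used here, so paralogs and overlapping genes are uncertain.

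The table held 30714 rows. An unnamed row, with 1.49% to 1.57% of the counts per pool, was not used, and 17 rows carry dates in place of symbols. Genes passing filterByExpr were normalized by TMM and tested with edgeR 4.0.16 (R 4.3.3) by the quasi-likelihood F test on group alone, with Benjamini-Hochberg adjustment over 21617 genes and a threshold of 0.05. CPM are TMM-normalized and, without gene lengths, not comparable between genes. DESeq2 1.42.0, limma-voom (limma 3.58.1), other normalizations, no filter, a replicate block, a threshold of 0.01 and leaving out each pool were alternatives. Scripts were tested on simulated data. No pools were treated as 1 library, since their counts differed by more than sampling noise.

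Genes and lists were chosen with earlier results of these data known. Classes were set by symbol, and the fibre type of tnnt2b to tnnt2e, pvalb3 and some others is uncertain. Genes named are those called, the 3 with most counts in each of the fast, slow and shared classes, 12 preset genes (myhz1.1, myhz2, smyhc1, mylpfa, acta1b, actc1b, ttn.1, ttn.2, neb, ryr1a, ryr1b and atp2a1), and at most 4 called genes per list and direction; others were named after their values were seen. Gene order came from RefSeq of GRCz12tu, where all 95 genes matched.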

Additional observations from a re-analysis of the deposited data

How the results depend on the processing

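The genes tcap, pvalb6, mylpfb and myl12.1 were past the threshold in all 12 alternatives, pvalb3 in 10 and ldb3b in 7. Over all genes, 3063 were called, against 1846 with DESeq2, 1260 at an adjusted p under 0.01 and 1641 to 2996 when 1 pool was left out. With 1 pool left out, sarcomere genes called higher numbered 2 to 7, fast genes called higher 1 to 3, and slow genes called higher 0 to 1, the 1 being ryr1a without EAE replicate 1. Fast genes called lower were 0, against 1 (myhz2) with DESeq2, with limma-voom and without a filter on low counts. The counts of other lists by pool were added after seeing the data. Other scalings moved the median of all genes by under 0.01 on the log2 scale, and the medians of the fast and slow classes and the ratio of fast to slow counts moved by less than the spread between replicates. The labels give both groups replicate numbers 1 to 3. Same-numbered pools did not deviate together (correlations of -0.0086, -0.034 and -0.093), and differently numbered pools had correlations of -0.033 to 0.0675. Deviations were taken from means of only 3 pools, so these values cannot exclude a shared clutch or handling by number. With a replicate block, 2336 genes were called, 3 sarcomere genes were higher and 2 lower, and ldb3b was no longer called (adjusted p = 0.076 by edgeR). With 3 pools per group, depth limits the low genes tnni1a, tnni2a.3 and tnni4b.1. A change small enough for its interval to include no change cannot be told from none.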
